A study of Mus musculus with 24 samples.

Results

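The effect of deleting the miR-17 motif of Pkd1 was examined in noncystic kidneys, in 9 of the 24 RNA-seq libraries of the series. Members were taken by their labels: 6 kidneys carrying the deletion (3 of the line D18 and 3 of the line D53) were compared with 3 RC/+ kidneys carrying the intact motif, across all genes. The other 15 libraries came from cystic RC/- kidneys, 5 of them unedited and 10 edited. All were whole kidneys taken at 18 days of age, of mice labelled C57BL/6 (a C57BL/6 J background in the methods).

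Every one of the 9 noncystic mice had 1 RC allele of Pkd1, a missense allele, and 1 floxed allele that stayed functional, since the methods give these mice no Ksp-Cre. The deletion sat in the 3′ UTR of the RC allele alone, so the other Pkd1 allele of the edited mice kept its motif. It was made with CRISPR/Cas9 in fertilized eggs, and each line descended from a single founder, labelled founder 3 for D18 and founder 2 for D53. The line of the RC/+ controls is not given in the labels. In the RC/- mice, Ksp-Cre, driven by the kidney-specific cadherin promoter in tubules of the distal nephron and collecting duct, inactivated the floxed allele. Nothing in the labels says whether mice shared litters, and p-values measure the spread between these mice.

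Polycystin-1, the product of Pkd1, is a large membrane protein of the primary cilium of tubule cells, and it acts in a complex with the channel protein polycystin-2, the product of Pkd2. Too little functional polycystin-1 causes polycystic kidney disease, in which tubules widen into cysts, proliferate and become inflamed. The microRNAs of the miR-17 family pair through their seed with a complementary motif in the 3′ UTRs of Pkd1 and Pkd2 messages and repress them, and removal of the motif takes away that pairing.

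The sequences below show the pairing that the deletion removed. The seed (bases 2 to 8) is in capitals in the 6 mature family members, and all 6 hold the same 7 letters, as does mmu-miR-6383, another mouse microRNA (RefSeq, GRCm38.p6).
mmu-miR-17-5p: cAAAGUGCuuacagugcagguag
mmu-miR-20a-5p: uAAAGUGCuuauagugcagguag
mmu-miR-20b-5p: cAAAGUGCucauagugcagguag
mmu-miR-93-5p: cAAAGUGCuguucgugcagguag
mmu-miR-106a-5p: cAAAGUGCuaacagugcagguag
mmu-miR-106b-5p: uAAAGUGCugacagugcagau
mmu-miR-6383: uAAAGUGCugugucacggaca

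The seed match of Pkd1 lies on the plus strand at chr17:24595732-24595738 (GRCm38), in exon 46 of 46, at position 193 of a 3′ UTR of 969 bases. That of Pkd2 lies on the plus strand at chr5:104503821-104503827, in exon 15 of 15, at position 133 of a 3′ UTR of 2131 bases. Both are shown from the reference genome with the flanking bases, the seed match in capitals. The exact bases removed in each line are not analysed here.
Pkd1, chr17:24595722-24595748: tggggcttctGCACTTTaaaaaggctg
Pkd2, chr5:104503811-104503837: ataattttctGCACTTTaatttatttt

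The 9 libraries held 20379982 to 26646502 gene counts each, with 5.46% to 6.67% of them from mitochondrial genes. Correlations of log2 CPM (counts scaled to the same library total) between libraries of the same group ran from 0.9833 to 0.9889 over 9 pairs, and those between edited and unedited kidneys from 0.9849 to 0.989 over 18 pairs, with medians of 0.9871 and 0.9869. On the first principal component, which held 19.5% of the variance, D18 replicate 7 stood at 58.3 and RC/+ replicate 5 at 25.8, with the others between -27.3 and 9.9. Counts of X- and Y-linked genes were those of 2 females and 1 male in RC/+ and in D18, and of 1 female and 2 males in D53. In whole kidney, fewer cells of a type and less RNA per cell cannot be told apart.

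The first question was whether removal of the motif changed the level of the Pkd1 message itself. Pkd1 (chr17:24549834-24596508, plus strand) was at 49.9, 50.7 and 51.5 CPM in the RC/+ kidneys, at 56.9, 62.7 and 65.6 CPM in D18, and at 62.3, 54.0 and 52.8 CPM in D53. All 6 edited kidneys were above all 3 unedited ones, as was so for 153 of all genes tested (0.678%). Pkd1 was at 59.1 ± 5.21 CPM (SD, n = 6) in the edited kidneys against 50.7 ± 0.803 CPM (SD, n = 3) in the unedited ones. The log2 difference was 0.22 (95% interval -0.02 to 0.46) and did not pass the test across genes (limma, adjusted p = 1). Tested alone, in an exact two-sided permutation test over the 84 ways to place 6 edited labels on the 9 libraries, the p was 0.0238, where the smallest possible is 0.0119. The call of this exact test was lost with TMM scaling (p = 0.0714) and with any 1 of 6 of the libraries left out. By line, the log2 difference was 0.28 in D18 and 0.15 in D53, and with 3 libraries against 3 the exact p was 0.1 in each, the smallest it can be.

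**Figure D1:**
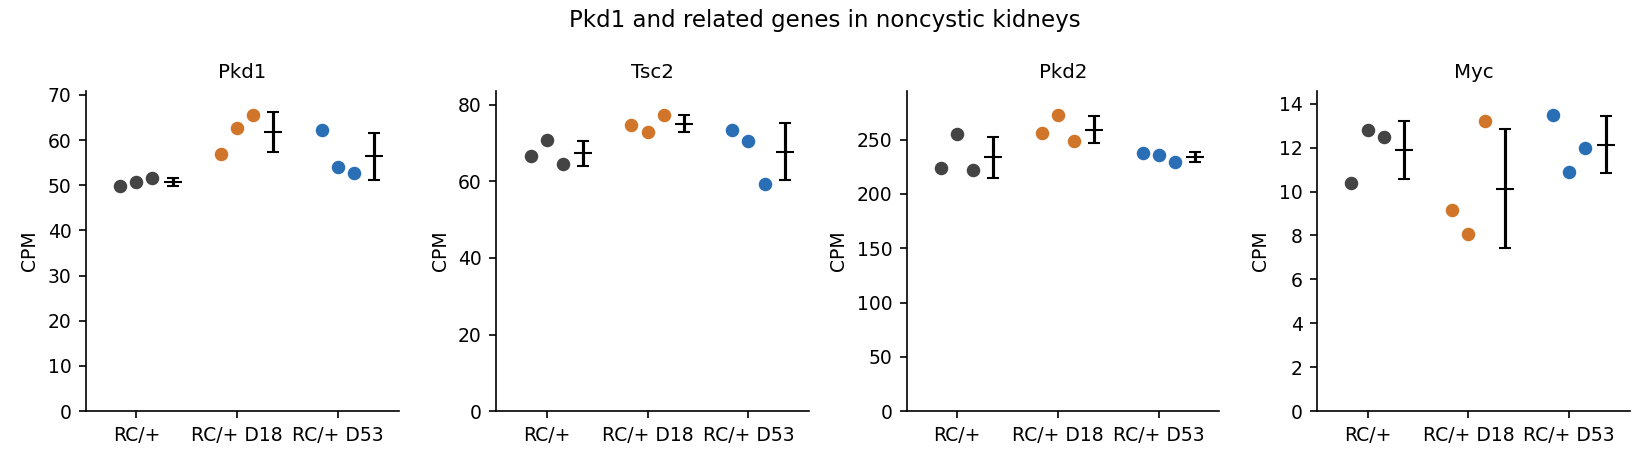
Level in CPM of Pkd1, its exon-sharing neighbor Tsc2, Pkd2 and Myc (vertical axes, linear) in RC/+, D18 and D53 kidneys. Points are libraries and bars mark the mean ± SD of 3; Pkd1 is at 49.9 to 51.5 CPM in RC/+ and at 52.8 to 65.6 CPM in the 6 edited kidneys, while edited and unedited kidneys overlap for the other 3 genes.

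Strand use in the counting is not given, and 3.98% of the exonic bases of Pkd1 overlap those of the adjacent gene Tsc2, which encodes the mTOR inhibitor tuberin. Tsc2 was at 66.5, 70.9 and 64.6 CPM in RC/+, at 74.8, 72.9 and 77.4 CPM in D18 and at 73.3, 70.6 and 59.4 CPM in D53, with a log2 difference of 0.08. Among the 32 tested genes within 250 kb of Pkd1, 16 had a positive and 16 a negative difference, with a median of 0.01 and none past the test. In the cystic kidneys, Pkd1 was at a mean of 59.0 CPM without and 60.9 (D18) and 55.2 CPM (D53) with the deletion, a log2 difference of -0.03 (adjusted p = 0.798), and the effect of the deletion did not differ between cystic and noncystic kidneys beyond its error (log2 difference -0.25, adjusted p = 0.259). In both settings these counts sum the RC allele and the other allele, so the level of the edited message alone is not measured. For edited against unedited RC/- kidneys, the paper reports higher usage of the RC allele and more polycystin-1 protein.

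Across the genome, no gene passed the test in the pooled comparison. Among 22570 tested genes, limma called 0 (0%) at an adjusted p below 0.05, with a lowest unadjusted p of 0.000189. Below an unadjusted p of 0.05 stood 583 genes, 2.58% of those tested, of which 261 were higher and 322 lower in the edited kidneys. The quasi-likelihood test of edgeR called 0 (617 at an unadjusted p below 0.05) and DESeq2 called 0 (540). The median log2 difference of all genes was -0.0011, and the median of its absolute size was 0.094.

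How small a change the comparison could exclude depended on the level of the gene, with the spread estimated from all 24 libraries. The 95% interval of the pooled log2 difference lay within ±1 for 16635 genes (73.7%) and within ±0.5 for 11173 (49.5%). For the 2172 genes of at least 100 CPM, 99.6% lay within ±1 and 95.5% within ±0.5, and for the 8427 genes of 10 to 100 CPM, 99.1% and 91.5% did. Under 1 CPM (7613 genes), 28.8% lay within ±1 and 0.0263% within ±0.5, so that in this range a 2-fold change was mostly not excluded. These intervals are for single genes. Passing the adjusted test across all genes takes a change larger against its error, so the intervals do not say what it could have detected.

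**Figure D2:**
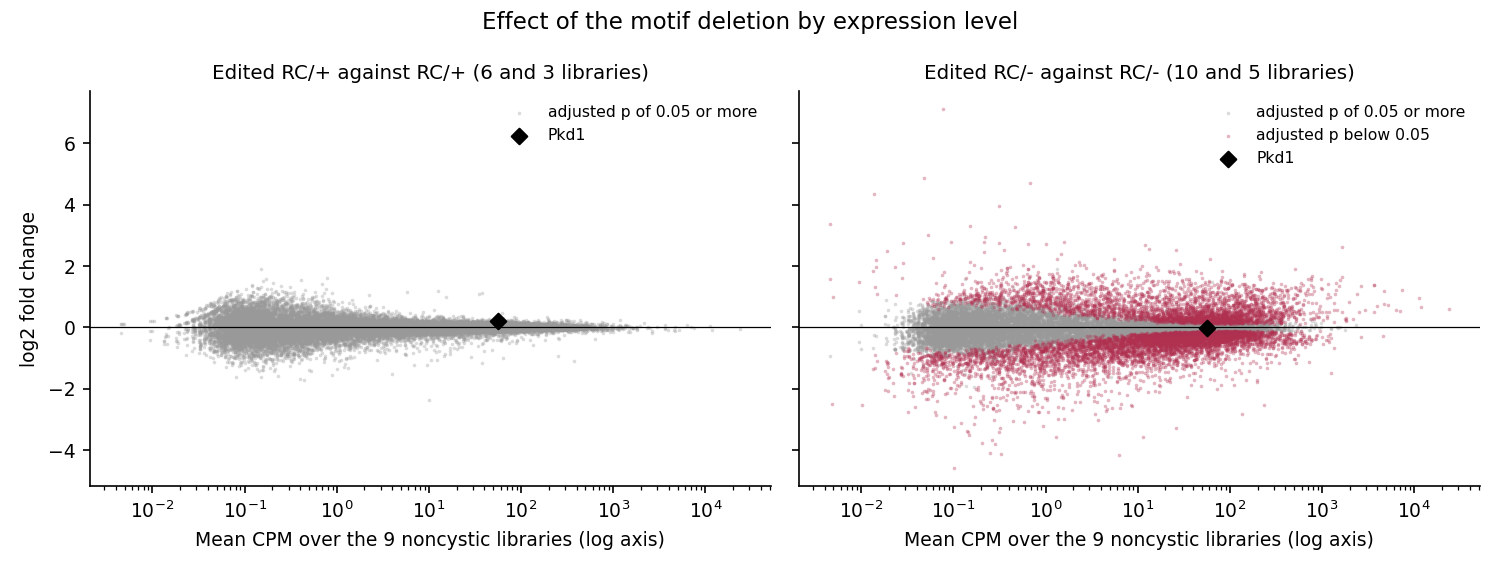
Log2 difference with the deletion (vertical axis) against the mean level over the 9 noncystic libraries (horizontal axis, CPM, log scale), in noncystic kidneys (left, 6 edited against 3 RC/+) and in cystic kidneys (right, 10 edited against 5 RC/-). Points are genes, red where the adjusted p was below 0.05, and the diamond is Pkd1; no point is red on the left, and 9366 are on the right.

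The same comparison in the cystic kidneys changed 9366 genes, 41.5% of those tested, of which 3289 rose and 6077 fell. The effect of the deletion differed between cystic and noncystic kidneys for 4533 genes (20.1%), 1679 with a more positive and 2854 with a more negative effect in the cystic kidneys. Both splits moved with the scaling: with TMM factors, 2231 and 1879 genes differed, and 50.8% of the calls in the cystic kidneys were rises in place of 35.1%. Of the 772 genes that were at least 2-fold higher in edited RC/- kidneys, with a median log2 difference of 1.26 there, the median in the noncystic kidneys was 0.04, and the noncystic interval excluded the cystic value for 715 (92.6%). For the 1135 genes at least 2-fold lower (median -1.3), the noncystic median was -0.08 and the interval excluded the cystic value for 990 (87.2%). Over all genes tested, the interval excluded the cystic value for 41.5%. Both sets were chosen for the size of the cystic value, whose own error the noncystic interval leaves out. The test of the difference of effects called 547 of the 772 (70.9%) and 727 of the 1135 (64.1%), against 20.1% of all genes. The cystic comparison had more libraries (10 against 5) than the noncystic one (6 against 3). In addition, 8 of the 10 edited cystic libraries held 171 to 228 CPM of skeletal muscle genes where the 9 noncystic libraries held 8.08 to 11.7 CPM; the unedited RC/- kidneys held 9.78 to 13 CPM. Without those 8 libraries, 2992 genes differed, a count that rests on 2 edited cystic libraries, both of D18.

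The second question was whether the lines D18 and D53 moved in the same direction. Of the 22570 genes, 13186 (58.4%) had the same sign in both lines, 6582 higher and 6604 lower, while 3938 were higher in D18 only and 5445 in D53 only. Of the 14957 genes of at least 1 CPM, 8273 (55.3%) had the same sign. Both differences used the same 3 RC/+ libraries, and shared controls favor like signs over an even split where nothing changed, so these counts do not show that the lines agree. Against RC/+, D18 had 1 called gene (0.00443% of those tested) and D53 had 0 (0%, lowest adjusted p = 0.252, with 525 genes at an unadjusted p below 0.05, 0 in edgeR and 0 in DESeq2). Between the lines, 1 gene passed in limma (0.00443%), the same gene, and 1573 were at an unadjusted p below 0.05, of which 1034 were higher in D53.

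That gene was Rps13-ps1, a processed pseudogene of the ribosomal protein gene Rps13 (chr8:87047689-87048226). It was at 31.3, 31.1 and 24.2 CPM in RC/+, at 12.7, 15.2 and 14 CPM in D18, and at 28.2, 30.1 and 27.8 CPM in D53. D18 stood below the other groups without overlap (log2 difference from RC/+ -1.04, adjusted p = 0.0351; from D53 1.04, adjusted p = 0.0337, limma). Over the 9 fits that each left out 1 noncystic library, the difference from RC/+ ran from -1.16 to -0.97, and its call held without RC/+ replicate 6 and was lost in the other 8. Its transcript is 99.6% identical to Rps13 over 522 of 538 bases, so that the division of reads between the copies is uncertain, and Rps13 itself was at 163 to 184 CPM in RC/+, 181 to 199 CPM in D18 and 171 to 183 CPM in D53. The pseudogene took 6.48% to 7.74% of the counts of the pair in D18, 12.5% to 16% in RC/+ and 13.2% to 14.5% in D53. In the cystic kidneys the share was low in 1 library of each line: it was 7.81% in 1 D18 kidney and 13.9% to 14.6% in the other 4, 9.01% in 1 D53 kidney and 14.7% to 16.2% in the other 4, and 14.1% to 16.6% without the edit.

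Another pair of copies stood apart in D18, with 1 copy higher and the other lower, and did not pass in limma. Gm28438, an unprocessed pseudogene on chromosome 1, was at 2.08, 2.43 and 2.53 CPM in RC/+, at 13.4, 12.5 and 11.8 CPM in D18 and at 2.44, 1.85 and 2.5 CPM in D53 (D18 log2 difference 2.38, adjusted p = 0.161). The mitochondrial gene mt-Nd3, a subunit of respiratory complex I, was at 4.37, 4.38 and 4.86 CPM, at 2.26, 1.59 and 1.74 CPM and at 4.47, 3.87 and 4.17 CPM in the same order (D18 log2 difference -1.26, adjusted p = 0.161). The copies are 99.7% identical over 345 bases, and Gm28438 took 85.6% to 88.7% of their counts in D18 against 32.3% to 37.5% in the other 6 noncystic libraries. Among the cystic kidneys its share was 83.7% to 88.8% in D18 and 33% to 43.6% in D53. In the unedited RC/- mice it was 84.2%, 87.9%, 88.6%, 89.6% and 40%, so high shares occurred without the edit. The summed level of the pair was 13.5 to 15.7 CPM in D18 and 5.72 to 7.39 CPM in the other 6 noncystic libraries. Against RC/+, Gm28438 passed in edgeR, in DESeq2 and in the fit of the 9 libraries only, and mt-Nd3 in DESeq2. The processed pseudogenes Rps15a-ps6 and Rps15a-ps7, each 98.7% identical to Rps15a, were also lower in D18. Rps15a-ps6 was at 9.33 to 10.3 CPM in RC/+, 3.88 to 4.44 CPM in D18 and 9.23 to 12.4 CPM in D53. Rps15a-ps7 was at 14.1 to 15.3, 5.96 to 8.08 and 12.6 to 15.3 CPM. Of the counts of Rps15a-ps6 and Rps15a, Rps15a-ps6 took 1.83% to 2.46% in noncystic D18 kidneys and 5.06% to 5.43% in RC/+. Its share in the cystic D18 kidneys was 2.16%, 5.08%, 6.49%, 5.77% and 2.46%. It was 2.69% to 6.1% in cystic D53 kidneys and 4.44% to 5.55% in unedited RC/- kidneys. Against RC/+, Rps15a-ps6 and Rps15a-ps7 both passed in DESeq2 and in the fit of the 9 libraries only, and not in the main limma fit. Slc6a15, which is not one of these copies, also passed in the fit of the 9 libraries only, for D18 against RC/+ and between the lines.

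**Figure D3:**
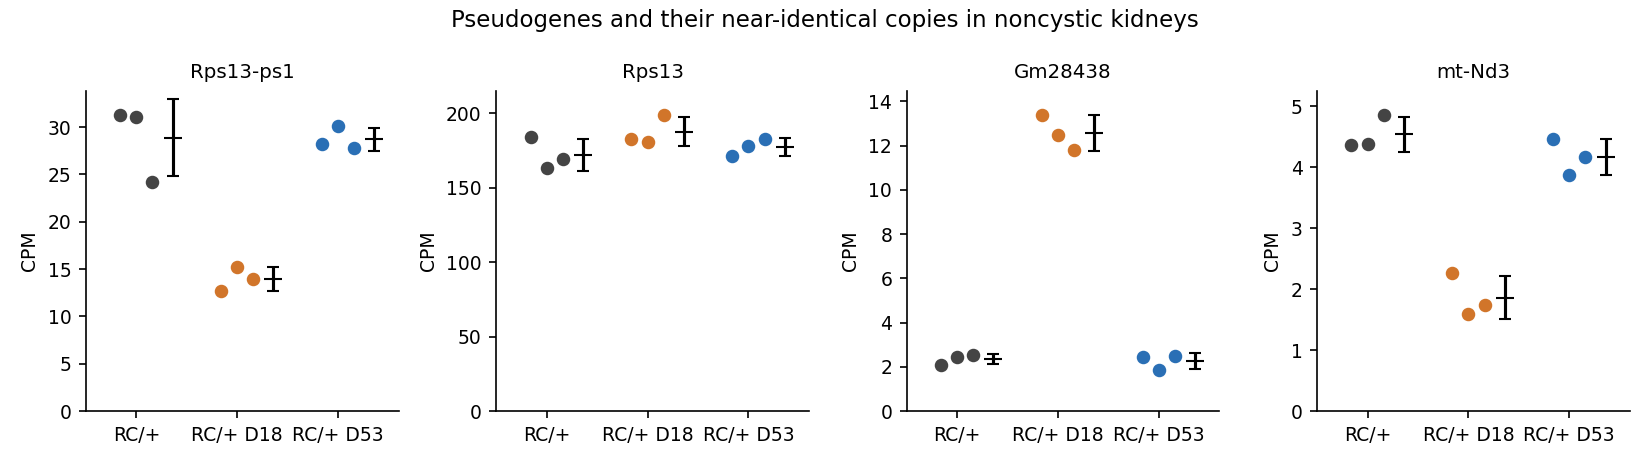
Level in CPM (vertical axes, linear) of the pseudogenes Rps13-ps1 and Gm28438 and of their near-identical copies Rps13 and mt-Nd3 in the 9 noncystic libraries. Points are libraries and bars mark the mean ± SD of 3; D18 is apart from both other groups for Rps13-ps1, Gm28438 and mt-Nd3, and not for Rps13.

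Genes were next described by function. In each of 24 lists, 0 genes passed the test in the pooled comparison, and the medians are given beside the -0.0011 of all genes. The 23 polycystin and cilia genes had a median log2 difference of 0.03 (17 positive, 6 negative), and the intervals of all 23 lay within ±0.5. Pkd2 was at 224, 255 and 222 CPM in RC/+, 256, 273 and 249 CPM in D18 and 238, 236 and 229 CPM in D53 (log2 difference 0.08, adjusted p = 1), and the groups overlapped. Pkhd1, whose product fibrocystin is lost in recessive polycystic kidney disease, differed by 0.04, and the intraflagellar transport gene Ift88 by 0.05.

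Other genes with the motif were examined as a group. Of 16431 tested genes with an annotated 3′ UTR, 2249 (13.7%) held the letters GCACTTT on the transcribed strand at least once. Their median log2 difference was 0.002 against -0.003 for all genes with a 3′ UTR, and 50.7% were positive against 48.9%. At an unadjusted p below 0.05 stood 32 of them (1.42%) against 326 of all (1.98%). The median 3′ UTR was longer in the genes that held a match, at 2622 against 1250 bases.

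The list of miR-17 family hosts and microRNA machinery (16 genes tested) had a median of 0.08, with 13 positive and 3 negative. Mir17hg, the host transcript of miR-17 and miR-20a, was at 9.02, 9.47 and 8.71 CPM in RC/+, at 11, 12.3 and 9.68 CPM in D18 and at 10.5, 10.7 and 9.76 CPM in D53 (0.23, adjusted p = 1). Xpo5, which exports microRNA precursors from the nucleus, was at 41.8, 42.6 and 39.6 CPM, at 43.9, 53.1 and 52.1 CPM and at 44.6, 43.3 and 50.6 CPM (0.21, adjusted p = 1). In both genes the edited kidneys lay above the unedited ones without overlap, as did 153 of all genes (0.678%), and 151 (0.669%) lay below without overlap.

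The summed level of tubule injury genes was lower in all 9 libraries than in unedited RC/- kidneys, and the sums of the noncystic groups overlapped. The 12 tubule injury genes summed to 1850 to 2050 CPM in RC/+, 1710 to 2020 CPM in D18 and 1880 to 1920 CPM in D53, against 5040 to 9510 CPM in unedited RC/- kidneys. Their pooled median was -0.15 (2 positive, 10 negative), whereas all 12 fell with the edit in the cystic kidneys (median -1.93) and 9 had a different effect there. Of all 22570 genes, 6077 fell there and 2854 had a more negative effect there than in the noncystic kidneys. Lcn2, a secreted marker of tubule damage, was at 5.14, 6.28 and 7.99 CPM in RC/+, 2.87, 3.42 and 7.68 CPM in D18 and 5.78, 6.51 and 10.5 CPM in D53 (-0.19, against -4.16 in cystic kidneys). Havcr1, the injury marker KIM-1, stayed between 0.177 and 0.513 CPM in the 9 libraries, against a mean of 19.6 CPM in RC/-. Other members of the list were not so low. Spp1 made up most of the sum, at 1160 to 1320 CPM in RC/+ and 1100 to 1390 CPM in the edited noncystic kidneys. Cdkn1a was at 31.5, 81.3 and 75.2 CPM in RC/+ and at 32 to 56.7 CPM in the edited noncystic kidneys (-0.42), against 76.3 to 96.9 CPM in unedited RC/-.

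The 15 macrophage genes had a noncystic median of 0.03, and all 15 fell with the edit in the cystic kidneys (median -1.08; 6077 of all 22570 genes fell). Of the 15, 14 had an effect different from the noncystic one, more negative in the cystic kidneys (2854 of all genes). Mrc1, the mannose receptor of alternatively activated macrophages, was at 13.2, 11.6 and 14.2 CPM in RC/+, 8.97, 12.6 and 15.4 CPM in D18 and 12, 13.4 and 15.8 CPM in D53, a log2 difference of -0.02 whose sign changed when single libraries were left out. In the cystic kidneys it fell by 1.62 (adjusted p = 2.69e-09). Myc, a growth-promoting transcription factor whose overexpression causes renal cysts in mice, was at 10.4, 12.8 and 12.5 CPM, at 9.14, 8.07 and 13.2 CPM and at 13.5, 10.9 and 12 CPM (-0.11, adjusted p = 1), and in the cystic kidneys it fell by 1.13 (adjusted p = 4.12e-08). The effects differed between the 2 settings for Myc (-1.01, adjusted p = 0.000546) and for Mrc1 (-1.61, adjusted p = 3.13e-05).

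The fibrosis list had a median of 0.03 in the noncystic kidneys, at -0.11 in D18 and 0.17 in D53. Oxidative phosphorylation genes, which encode the mitochondrial respiratory chain, had a median of -0.02, and all 19 intervals lay within ±0.5, while all 19 rose in the cystic kidneys (median 0.46), as did 3289 of all 22570 genes. The lists for the thick ascending limb and distal convoluted tubule (0.00), collecting duct (0.03), podocyte (0.09), endothelium (0.08), cyst signaling (-0.01), circadian clock (0.05) and interferon response (-0.08) had medians within 0.1 of 0 over all 9 libraries. So did those for proximal tubule (0.07), fasting and Ppara targets (0.06), postnatal maturation (0.02), blood (0.08) and pancreas and liver (0.02). With single libraries left out, some passed that bound, among them endothelium (up to 0.2), podocyte (up to 0.17), blood (-0.17 to 0.2) and interferon response (down to -0.16).

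**Figure D4:**
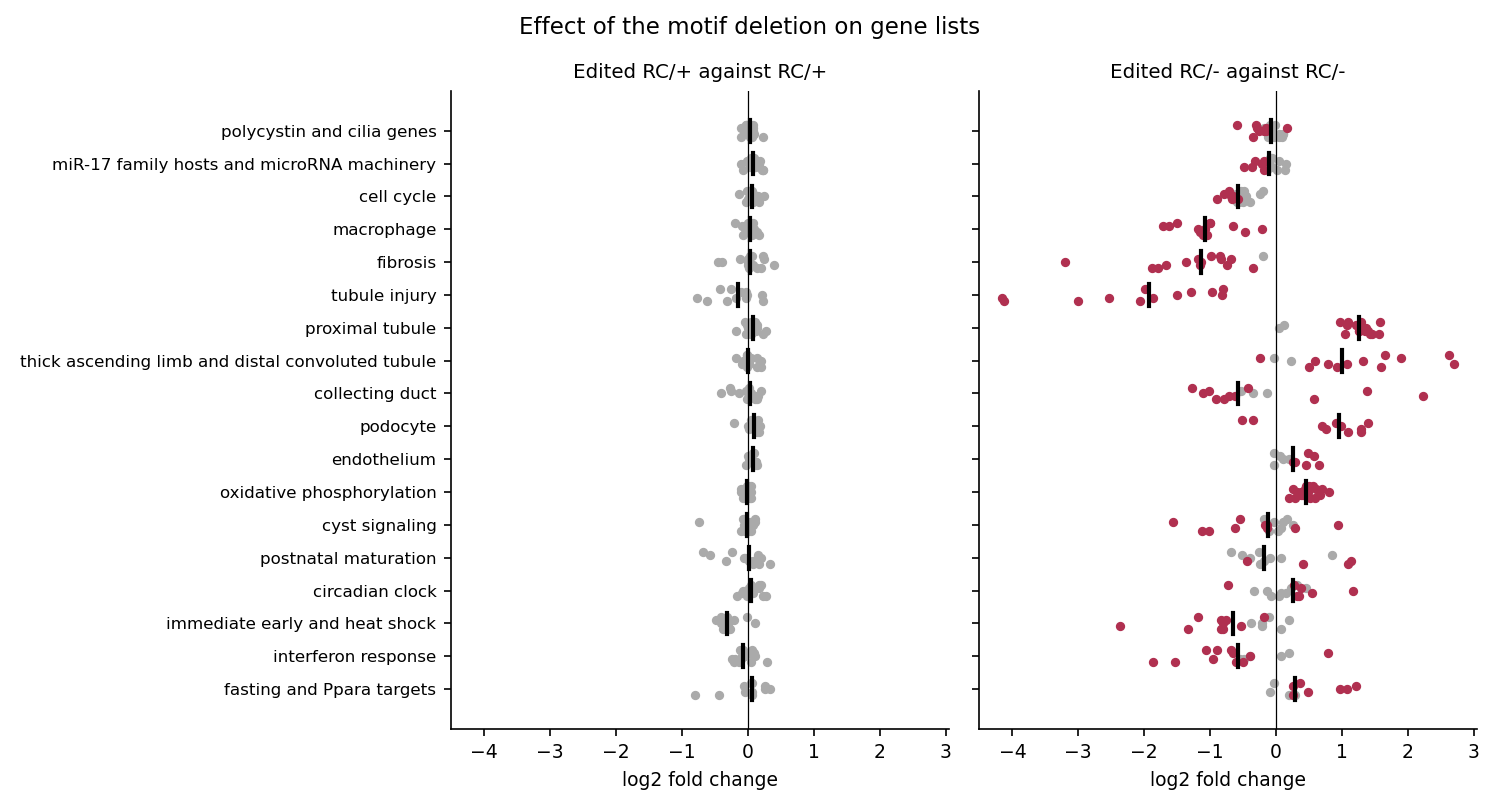
Log2 difference with the deletion (horizontal axis) of the tested members of 18 gene lists, in noncystic kidneys (left) and cystic kidneys (right). Points are genes, red where the adjusted p was below 0.05, and black bars are list medians; no point is red in the noncystic kidneys, where the medians run from -0.32 for immediate early and heat shock genes to 0.09 for podocyte genes.

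Cell cycle genes had opposite signs in the lines, and none passed the test. The 20 genes had a pooled median of 0.06, while all 20 were below RC/+ in D18 (median -0.41) and all 20 above it in D53 (median 0.58), where 14 of the 20 did not overlap with RC/+ (4.95% of all genes lay higher without overlap, 3.89% lower). D53 exceeded D18 in all 20 (median 0.97), and 19 did not overlap (7.66% of all genes higher, 5.41% lower). At an unadjusted p below 0.05 stood 17 of the 20, against 1573 of all genes (6.97%), and 0 passed after adjustment.

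Mki67, the proliferation antigen Ki-67, was at 79.1, 41.6 and 80.2 CPM in RC/+, at 28.3, 59.5 and 82.4 CPM in D18 and at 91.2, 102 and 103 CPM in D53 (D53 against D18 0.93, adjusted p = 0.708). Ccna2, an S-phase and G2 cyclin, was at 26.5, 14.4 and 25.5 CPM, at 8.53, 16.1 and 23.6 CPM and at 32.6, 33.0 and 34.2 CPM (1.16, adjusted p = 0.646). Pcna, the DNA polymerase clamp, was at 119, 107 and 139 CPM, at 90.8, 100 and 128 CPM and at 145, 145 and 154 CPM (0.49, adjusted p = 0.646). The D53 kidneys were the highest in each and lay close together, while RC/+ and D18 were spread.

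Summed over the list, RC/+ held 695, 441 and 744 CPM, D18 held 339, 492 and 687 CPM, and D53 held 821, 861 and 874 CPM. The lowest values in D18 and RC/+ belonged to the same libraries that stood apart on the first principal component, D18 replicate 7 and RC/+ replicate 5. Without D18 replicate 7 the median between the lines was 0.63 with 1 gene at an unadjusted p below 0.05, and that of D18 against RC/+ was -0.1. Without RC/+ replicate 5 the median of D18 was -0.71 and that of D53 was 0.26. D18 replicate 7 also had the most blood transcripts (790 CPM, against 316 to 539 CPM in the other 8) and the highest proximal tubule sum (29400 CPM, against 24400 to 26000 CPM). Their part in the result was not tested.

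**Figure D5:**
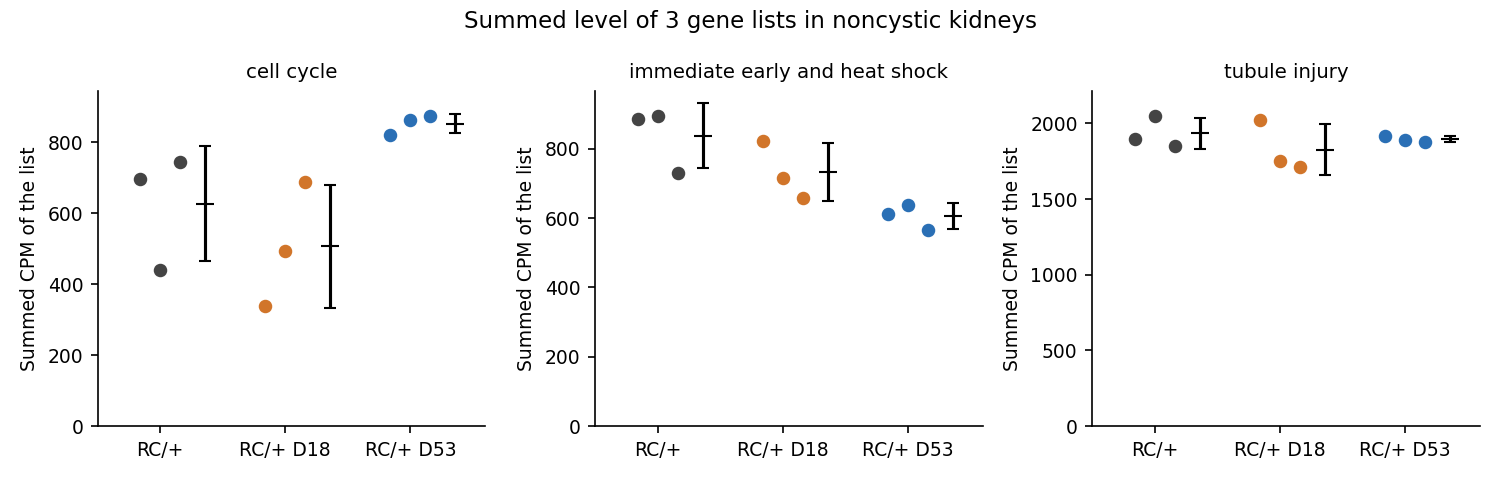
Summed level in CPM (vertical axes, linear) of the cell cycle, immediate early and heat shock, and tubule injury lists in RC/+, D18 and D53 kidneys. Points are libraries and bars mark the mean ± SD of 3; D53 is highest for the cell cycle list (821 to 874 CPM) and lowest for immediate early and heat shock genes (566 to 638 CPM), and the groups overlap for tubule injury.

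Immediate early and heat shock genes had the pooled median furthest from 0 among the kidney lists, at -0.32, with 1 positive and 15 negative of 16 and 5 at an unadjusted p below 0.05 (2.58% of all genes). It was -0.21 in D18 and -0.40 in D53, where 7 were at an unadjusted p below 0.05 (2.33% of all genes) and 3 lay below RC/+ without overlap (3.89%). The summed level was 887, 895 and 729 CPM in RC/+, 823, 717 and 659 CPM in D18 and 613, 638 and 566 CPM in D53. Jun, a subunit of the AP-1 transcription factor, was at 136, 82.1 and 64.7 CPM in RC/+, at 70.7, 63.2 and 61.0 CPM in D18 and at 60.9, 68.2 and 58.9 CPM in D53 (-0.49, adjusted p = 1). RC/+ replicate 4 was the highest of the 9 for Jun, Fos, Egr1 and the matricellular gene Ccn1, which was at 139, 49.8 and 29.4 CPM in RC/+ and at 27.5 to 45.4 CPM in the edited kidneys. With each library left out in turn, the median of the list ran from -0.37 to -0.26.

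Proximal tubule genes were higher in D18 than in RC/+ for 17 of 20 (median 0.15) without passing the test, and 3 of the 20 lay higher without overlap (4.87% of all genes higher, 5.07% lower). Lrp2, the endocytic receptor megalin, was at 1010, 1150 and 961 CPM in RC/+, at 1380, 1440 and 1410 CPM in D18 and at 979, 996 and 1210 CPM in D53, and its partner cubilin (Cubn) was at 169, 179 and 162 CPM, at 237, 234 and 230 CPM and at 163, 178 and 196 CPM. For both, D18 lay above the other groups without overlap, with log2 differences from RC/+ of 0.44 and 0.46 and adjusted p = 0.983 in each.

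The protein-coding genes with the lowest p in the pooled comparison at a mean of at least 1 CPM were described next, 5 in each direction. Each had the same sign in both lines, and none passed the test across genes. Arhgap22, a GTPase-activating protein for Rac, was at 1.55, 1.5 and 1.73 CPM in RC/+, 2.7, 2.2 and 2.77 CPM in D18 and 2.51, 2.6 and 3.19 CPM in D53 (0.71, SE 0.17, adjusted p = 1). In the cystic kidneys it fell by 0.61 (adjusted p = 0.000607), and the effects differed (-1.32, adjusted p = 0.000143). The difference of effects contains the noncystic values by which Arhgap22 was chosen, so its p is no independent test. Pcdh9, a protocadherin, was at 0.735, 1.24 and 1.04 CPM, at 2.61, 1.63 and 1.92 CPM and at 1.46, 1.3 and 1.62 CPM (0.75, adjusted p = 1). Both had been picked by p and lay higher in the edited kidneys without overlap, as did 153 of all genes (0.678%). The others were Xpo5, given above, Ralgapa1 (0.22) and 4930518I15Rik (0.68).

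On the lower side, Lef1, a transcription factor of Wnt signaling, was at 1.84, 1.59 and 1.61 CPM in RC/+, at 0.522, 0.408 and 1.03 CPM in D18 and at 1.05, 1.07 and 0.785 CPM in D53 (-1.05, SE 0.28, adjusted p = 1). Slc16a3, a lactate exporter, was at 8.08, 23.5 and 14.9 CPM, at 7.4, 1.96 and 5.45 CPM and at 7.47, 8.6 and 9.27 CPM (-1.22, adjusted p = 1), with an overlap at RC/+ replicate 4. Btg2, an antiproliferative gene that is induced early after stress, was at 83.0, 67.7 and 61.9 CPM, at 54.9, 57.2 and 49.0 CPM and at 49.8, 56.3 and 49.4 CPM (-0.42, adjusted p = 1), with no overlap (0.669% of all genes lay lower without overlap). The others were mt-Nd3, given above, and Rab11fip1 (-0.40).

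Adrenal and skeletal muscle genes were near 0 in the noncystic kidneys, and fat genes were not. The 9 libraries held 3.27 to 11.7 CPM of adrenal genes, against 1950 CPM in 1 unedited RC/- kidney, and the adrenal median of 0.98 was taken over 7 genes at such levels. The median of skeletal muscle genes was -0.13. Adipose genes summed to 116, 212 and 347 CPM in RC/+ and to 25.5 to 206 CPM in the edited kidneys, with a median of -0.74, and their part in other differences was not tested.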

How the data were processed

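RNA was sequenced from 24 whole kidneys of 18-day-old mice. The authors trimmed reads with Trim Galore 0.6.3, aligned them to GRCm38 with STAR 2.5.3a and deposited raw counts per gene (Ensembl release 94) in a single table. Strand use was not given in the sources used here, so antisense and overlapping genes are uncertain.

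Counts were scaled to CPM by library totals. For the test, log2 CPM with a prior count of 2 was fitted with limma 3.58.1 (trend, R 4.3.3), with 6 group means over all 24 libraries, for the 22570 of 54532 genes with mean log2 CPM of at least -3, and p-values were adjusted by Benjamini-Hochberg (threshold 0.05). The edited effect is the mean of D18 and D53 minus RC/+. All 24 libraries, cystic ones included, share 1 estimate of the spread. edgeR 4.0.16, DESeq2 1.42.0 (adjusted p given as NA kept so), TMM, other filters, 9 libraries only, sex as a covariate and leaving out each library were alternatives. Scripts were tested on simulated data. Copies were aligned with BLAST 2.17.0. Of 54532 gene IDs, 54495 matched GENCODE M21, which gave names, positions and 3′ UTRs.

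Named genes were Pkd1, Pkd2 and the study's reported genes, members of the lists and genes past the test. To these were added the 5 protein-coding genes in each direction with the lowest pooled p at a mean of 1 CPM or more. Gdf15, Gm28438, mt-Nd3, Rps15a-ps6 and Rps15a-ps7 by line, and the summary by copies, were chosen after their values were seen. The libraries compared and the gene lists were chosen with earlier results of these data known. Within-group pairs differed by more than counting noise (chi-square per degree of freedom 8.63 to 31.5), so none was counted as a copy of another. List genes below the expression limit were not tested.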

Additional observations from a re-analysis of the deposited data

Results flagged for a closer look

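Within the 6 edited noncystic kidneys, 10 of 129 values checked had 1 library far from the other 5. The chance rate of about 1 in 20 holds for a single value and libraries of one kind. Here the libraries came from the lines D18 and D53, and the summed blood list contains Hbb-bs and Hba-a1, so the count cannot be set against that rate. D18 replicate 7 was the library in 6 of the 10 values. It was highest for the hemoglobin genes Hbb-bs (385 CPM, others 181 to 228) and Hba-a1 (211 CPM, others 88 to 124), for the summed blood list (790 CPM, others 366 to 489), for the summed proximal tubule list (29400 CPM, others 24400 to 25500), for the heat shock gene Hsph1 (202 CPM, others 97.2 to 122) and for Alb (2.09 CPM, others 0.652 to 1.18). D18 replicate 8 was highest for Slc12a1, the thick ascending limb cotransporter (3180 CPM, others 2170 to 2410). D18 replicate 9 was lowest for Umod, uromodulin of the same segment (1250 CPM, others 1670 to 1860), and highest for Dbh, an adrenal medulla gene (1.34 CPM, others 0 to 0.0491). D53 replicate 10 was lowest for the interferon gene Ifit2 (32.5 CPM, others 38.9 to 41.2).

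The effect of the deletion differed between RC/- and RC/+ kidneys for 4533 genes by a test of the difference itself (limma, adjusted p below 0.05), 20.1% of those tested. Of the 105 named genes checked, 41 were among them; these include disease lists and genes chosen by p, so their count is no sample of all genes. The effect in RC/- minus that in RC/+ was -1.01 for Myc, -1.61 for Mrc1, -1.32 for Arhgap22, -0.88 for 4930518I15Rik, -0.39 for Xpo5 and 1.58 for mt-Nd3 on the log2 scale. Arhgap22, 4930518I15Rik, Xpo5 and mt-Nd3 had been chosen by p from the noncystic values that enter this difference. The division of reads between mt-Nd3 and its copy Gm28438 is uncertain. In the unedited RC/- kidneys, Gm28438 took 84.2%, 87.9%, 88.6%, 89.6% and 40% of their counts. What part this had in the 1.58 was not tested. For Arhgap22, the libraries of the edited kidneys were higher in the noncystic setting and the gene fell in the cystic one. In limma, 1 gene differed between the lines, Rps13-ps1, at a log2 difference of 1.04 (D53 minus D18).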

How the results depend on the processing

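No paired analysis was possible because the labels do not give litters or pairs of mice. The pooled comparison gave 0 genes past the test in every alternative run, with 515 to 778 at an unadjusted p below 0.05 when single libraries were left out. The count for D18 against RC/+ (1) was 2 with edgeR, 5 with DESeq2, 5 with the 9 noncystic libraries only, 0 with no filter on low counts, 0 with sex as a covariate and 0 to 1 with single libraries left out (0 in 8 of 9). The count between the lines (1) was 0 with TMM, DESeq2 size factors or sex as a covariate, 2 with edgeR or no filter, 4 with DESeq2, 5 with the 9 libraries only and 0 to 1 with single libraries left out. The difference of effects between settings (4533 genes) was 2992 without the 8 cystic libraries that hold muscle transcripts, an alternative chosen after seeing the data, and 3287 to 4910 with single noncystic libraries left out; that in the cystic kidneys (9366) was 6060 without those 8. For Pkd1, the difference was 0.22 with TMM (exact permutation p = 0.0714) and 0.18 to 0.25 with single libraries left out, where 6 of 9 lost the call. The sign turned for Yap1 (-0.07 to 0.02), Mrc1 (-0.11 to 0.09) and Creb1 (-0.02 to 0.05) with single libraries left out. The median of cell cycle genes between the lines was 0.63 to 1.28, and pooled -0.22 to 0.25. Of 1253 values compared with the main ones, 1186 were labelled the same. For single genes this meant the same direction and side of the threshold. For list medians it meant a shift smaller than the spread between edited libraries, whatever the sign, so the pooled cell cycle median of -0.22 counted as the same. The tally is therefore no measure of how stable the list medians were. Why settings changed a value was not tested. Depth and number of mice limit genes under 1 CPM most.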
